A study of Mus musculus with 12 samples.

Results

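Aminoacyl-tRNA synthetases, the enzymes that load each amino acid onto its tRNA, were followed in lymph node cells of P14 mice cultured with or without a viral peptide. The genes were taken by name and comprised 19 cytosolic enzymes, 16 mitochondrial enzymes and 3 scaffold proteins that hold several cytosolic enzymes in one complex. All 38 were measured, among 18193 genes with a probe set of their own. The cells carried the P14 transgenic T cell receptor, which recognises the peptide gp33-41 on MHC class I, and they came from 3 PKD2-null mice and 3 wild-type mice; PKD2 is protein kinase D2, a serine/threonine kinase switched on below the antigen receptor. Cells of each mouse were kept in culture for 4 h with peptide at 62.5 ng/ml or without it. This gave 3 arrays each of stimulated null, unstimulated null, stimulated wild-type and unstimulated wild-type cells, every one of them from the P14 strain. The suspensions were made from whole lymph nodes with no sorting stated, and neither the ages of the mice nor the way the null allele was made is given in the labels.

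Every protein made in the cytosol or in the mitochondrion starts from charged tRNA, and mammals keep largely separate sets of nuclear genes for the enzymes of each compartment. Gars1 and Kars1 are exceptions, since each also gives the mitochondrial form of its enzyme, and Eprs1 fuses the glutamate and proline enzymes in one chain. The enzymes fall into structural classes I and II, and in animal cells a subset of the cytosolic ones sits in the multisynthetase complex on the scaffold proteins Aimp1, Aimp2 and Eef1e1 (also called AIMP3). A T cell that meets antigen grows before it divides, and it raises protein synthesis as it does so. MYC and ATF4 are transcription factors known to bind E boxes and C/EBP-ATF elements at genes of amino acid use.

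The windows upstream of the gene starts are shown because the cytosolic and mitochondrial enzymes moved apart after peptide (values below) and because these letters can be searched for motifs of such factors. Promoters were taken from RefSeq (mouse build GRCm38.p6), as the 250 bases before the start, and 29 of the 38 genes matched by symbol. The genes Cars1, Hars1, Lars1, Nars1, Rars1, Vars1, Wars1, Hars2 and Pars2 had none. Shown 5′ to 3′ are the 5 cytosolic genes that held a motif and Yars2, the mitochondrial enzyme with the largest rise. The regions are chr8:111033592-111033841 on the plus strand for Aars1, chr1:78488898-78489147 on the minus strand for Farsb, chr13:49681880-49682129 on the plus strand for Iars1, chr6:55037751-55038000 on the plus strand for Gars1, chr15:11399659-11399908 on the minus strand for Tars1 and chr16:16302715-16302964 on the plus strand for Yars2. Capitals mark the E box CACGTG and the C/EBP-ATF core TGATGNAA, searched on both strands, so that the core also reads TTNCATCA.
Aars1: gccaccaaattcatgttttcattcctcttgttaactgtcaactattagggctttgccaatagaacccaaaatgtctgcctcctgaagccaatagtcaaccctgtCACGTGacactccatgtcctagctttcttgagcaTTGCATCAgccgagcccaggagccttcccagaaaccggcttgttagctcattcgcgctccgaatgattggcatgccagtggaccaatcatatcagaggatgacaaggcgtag
Farsb: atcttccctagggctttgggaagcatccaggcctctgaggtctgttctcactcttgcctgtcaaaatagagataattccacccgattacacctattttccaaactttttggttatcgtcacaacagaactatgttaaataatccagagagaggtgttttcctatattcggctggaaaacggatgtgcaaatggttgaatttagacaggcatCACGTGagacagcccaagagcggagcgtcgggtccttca
Iars1: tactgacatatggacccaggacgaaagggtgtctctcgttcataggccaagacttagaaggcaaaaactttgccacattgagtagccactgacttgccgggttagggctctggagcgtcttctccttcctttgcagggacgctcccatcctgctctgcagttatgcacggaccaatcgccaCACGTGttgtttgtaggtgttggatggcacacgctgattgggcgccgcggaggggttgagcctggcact
Gars1: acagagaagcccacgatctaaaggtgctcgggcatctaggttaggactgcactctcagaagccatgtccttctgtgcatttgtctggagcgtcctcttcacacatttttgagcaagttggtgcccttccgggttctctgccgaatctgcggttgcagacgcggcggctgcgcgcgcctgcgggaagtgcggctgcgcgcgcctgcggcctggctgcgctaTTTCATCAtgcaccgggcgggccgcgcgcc
Tars1: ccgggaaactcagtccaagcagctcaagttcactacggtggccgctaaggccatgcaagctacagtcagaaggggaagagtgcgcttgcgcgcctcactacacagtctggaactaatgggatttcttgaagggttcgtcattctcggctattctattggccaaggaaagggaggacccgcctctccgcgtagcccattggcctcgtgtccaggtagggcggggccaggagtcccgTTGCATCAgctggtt
Yars2: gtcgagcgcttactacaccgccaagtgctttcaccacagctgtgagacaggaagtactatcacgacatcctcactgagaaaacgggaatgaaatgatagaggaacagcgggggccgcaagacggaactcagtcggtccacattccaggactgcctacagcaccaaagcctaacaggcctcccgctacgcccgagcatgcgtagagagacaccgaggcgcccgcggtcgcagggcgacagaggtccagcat
The E box lay 146 bases before the start of Aars1, 39 before that of Farsb and 69 before that of Iars1. The C/EBP-ATF core began 112, 30 and 15 bases before the starts of Aars1, Gars1 and Tars1. Each motif was thus in 3 of 12 cytosolic promoters, in 0 of 15 mitochondrial ones (from 14 genes, since Aars2 has 2) and in 0 of 4 scaffold ones (from 3 genes, since Aimp1 has 2), against 6.02% (E box) and 3.45% (core) of all 32851 promoters in the table. The motifs do not overlap each other in these windows. A match is a run of letters and no measurement of binding.

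Signals were log2 values with array medians between 4.66 and 4.72, and arrays of a group correlated at 0.991 or more. Prkd2, which encodes PKD2, ran from 5.36 to 5.60 in stimulated null cells and from 8.16 to 8.52 in stimulated wild-type cells, and from 5.80 to 6.33 in unstimulated null cells and from 9.99 to 10.34 in unstimulated wild-type cells, so no array went against its genotype label. The mean level of 6 T cell markers lay between 10.63 and 11.2 on every array, although its genes moved both ways with peptide. That of 9 B cell markers lay between 8.977 and 9.7 in stimulated null, 9.708 and 10.35 in unstimulated null, 8.348 and 8.544 in stimulated wild-type and 9.2 and 9.303 in unstimulated wild-type cells. The arrays, 3 per group, limit the precision.

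With peptide, nearly the whole cytosolic set rose in both genotypes. In null cells 17 of 19 cytosolic genes were called higher and 1 lower (limma, adjusted p under 0.05 over 45037 probe sets), against 12.5% higher and 19% lower of all genes. In wild-type cells the same counts were 17 and 1 of 19, against 15.1% and 20.4% of all genes. The median cytosolic change was 0.98 in null and 1.22 in wild-type cells on the log2 scale, while the median over all genes was -0.02 and 0.01. The rises spanned 0.44 to 1.58 in null cells (1.36-fold to 2.99-fold) and 0.48 to 1.92 in wild-type cells (1.39-fold to 3.77-fold). The 16 mitochondrial enzymes went both ways. In null cells 6 were called higher and 4 lower, and in wild-type cells 5 higher and 4 lower, with medians of -0.03 in null and 0.06 in wild-type cells. Their share of falls was 25% in each genotype, near the 19% in null and 20.4% in wild-type cells of all genes. Rises made up 37.5% in null and 31.2% in wild-type cells, against 12.5% and 15.1% of all genes. Of the scaffold genes, 2 of 3 rose in null cells and 3 of 3 in wild-type cells. Over all 38 genes 24 were called higher in both genotypes, 5 lower in both, 7 in neither and 2 in 1 genotype. RNA was taken from mixed cells, so fewer cells of a type and less RNA per cell cannot be told apart. Beside these rises, 5 of 9 B cell markers in null and 7 of 9 in wild-type cells were called lower with peptide. All 9 had negative changes in each genotype (medians -0.67 in null and -0.73 in wild-type cells). With the mouse as a replicate block, Ms4a1, Ighm, Cd22 and Ebf1 were called lower in null cells too (limma adjusted p = 0.0002, 0.00032, 0.00081 and 0.0061). In wild-type cells Ebf1 was then called as well (adjusted p = 0.0015) and Pax5 was not (0.61). Of 6 T cell markers, 1 was called higher (Cd5, by 1.68 in null and 1.88 in wild-type cells) and 1 lower in null (Cd8b1, -1.11), and in wild-type cells 3 were called lower (Cd3d -0.65, Cd3g -0.64 and Cd8b1 -1.38). Of 5 plasma cell markers 3 were called lower in null and 2 in wild-type cells. The part of these markers in the synthetase changes was not tested.

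**Figure D1:**
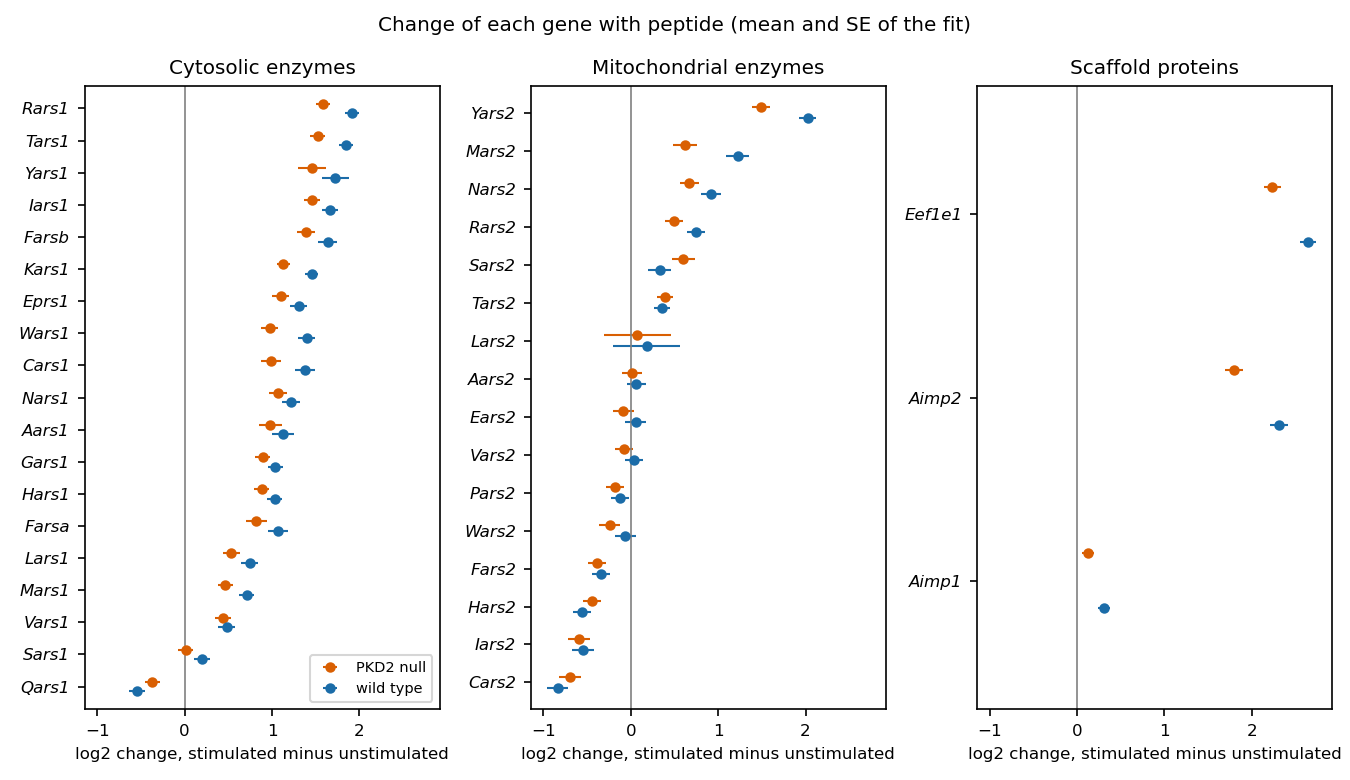
Change with peptide on the log2 scale (horizontal axis) for each gene, with bars of 1 standard error from limma (3 arrays a group), in PKD2-null cells (orange) and wild-type cells (blue), in panels for the cytosolic, mitochondrial and scaffold genes. Of 19 cytosolic genes 17 lie right of 0 past the test in each genotype, and Qars1 lies left of it.

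The gap between the medians of the cytosolic and mitochondrial genes was present in every mouse. The median change of the cytosolic genes in the 3 null mice was 0.94, 0.87 and 1.14, and in the 3 wild-type mice it was 1.28, 1.25 and 1.33. The median of the mitochondrial genes was -0.11, -0.03 and 0.05 in the null mice and 0.12, 0.10 and 0.15 in the wild-type mice. The cytosolic median therefore exceeded the mitochondrial one by 0.90 to 1.09 in null mice and by 1.15 to 1.18 in wild-type mice. These medians describe the chosen genes and carry no test.

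Arginyl-tRNA synthetase (Rars1), a resident of the multisynthetase complex, had the largest cytosolic change. Its log2 signal was 11.26, 11.17 and 11.33 in stimulated and 9.72, 9.73 and 9.57 in unstimulated null cells, and 11.42, 11.35 and 11.47 in stimulated and 9.51, 9.57 and 9.42 in unstimulated wild-type cells. All stimulated arrays stood above all unstimulated ones with no overlap. The change was 1.58 ± 0.0821 (SE) in null cells (2.99-fold, limma adjusted p = 5.3e-08) and 1.92 ± 0.0821 in wild-type cells (3.77-fold, adjusted p = 6.2e-09). Tars1, the threonyl enzyme, gave 10.71, 10.76 and 10.74 in stimulated and 9.29, 9.28 and 9.08 in unstimulated null cells, against 10.85, 10.81 and 10.96 in stimulated and 9.05, 9.03 and 9.01 in unstimulated wild-type cells. The groups with and without peptide were again far apart, by 1.52 ± 0.0809 in null and 1.84 ± 0.0809 in wild-type cells (limma adjusted p = 6.6e-08 and 7.4e-09).

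Yars1 charges tyrosine and Iars1 isoleucine. Yars1 had signals of 9.18, 9.21 and 8.93 in stimulated and 7.89, 7.69 and 7.38 in unstimulated null cells, and of 9.30, 8.93 and 9.47 in stimulated and 7.55, 7.36 and 7.62 in unstimulated wild-type cells. Iars1 had 10.83, 10.70 and 10.88 in stimulated and 9.17, 9.50 and 9.37 in unstimulated null cells, and 10.86, 10.78 and 10.91 in stimulated and 9.20, 9.24 and 9.12 in unstimulated wild-type cells. For both genes every stimulated array exceeded every unstimulated array. Yars1 rose by 1.46 in null and 1.72 in wild-type cells, and Iars1 by 1.46 in null and 1.66 in wild-type cells. The other 13 cytosolic genes that rose spanned 0.44 to 1.39 in null and 0.48 to 1.64 in wild-type cells, from Vars1, the valyl enzyme, to Farsb, the beta subunit of the phenylalanyl enzyme. Its partner subunit Farsa rose by 0.82 in null and 1.07 in wild-type cells. Over all 38 genes, stimulated and unstimulated arrays did not overlap in 31 genes in each genotype, against 41.5% of all genes in null and 46.7% in wild-type cells.

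Gars1, the glycyl enzyme, and Kars1, the lysyl enzyme, which serve both compartments, rose by 0.89 and 1.13 in null cells and by 1.04 and 1.45 in wild-type cells. The bifunctional Eprs1 rose by 1.10 in null and 1.30 in wild-type cells. Cars1, for cysteine, rose by 0.99 in null and 1.38 in wild-type cells, Nars1, for asparagine, by 1.07 in null and 1.22 in wild-type cells, and Aars1, for alanine, by 0.98 in null and 1.13 in wild-type cells. The weaker rises were found in Hars1, for histidine (0.88 in null and 1.03 in wild-type cells), Lars1, for leucine (0.54 in null and 0.74 in wild-type cells), and Mars1, for methionine (0.46 in null and 0.71 in wild-type cells). Vars1 was lowest with 0.44 in null and 0.48 in wild-type cells. Of 29 other probe sets of the synthetase and scaffold genes with a mean above the median level, 27 had the direction of the probe set used in null cells and 28 in wild-type cells.

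The glutaminyl enzyme Qars1 and the seryl enzyme Sars1 stood apart from the rest of the cytosolic set. Qars1 had 10.51, 10.46 and 10.40 in stimulated and 10.83, 10.93 and 10.70 in unstimulated null cells, and 10.25, 10.43 and 10.42 in stimulated and 10.93, 10.96 and 10.83 in unstimulated wild-type cells. Each stimulated array was below each unstimulated one of its genotype, and the gene fell by 0.37 in null cells (limma adjusted p = 0.0068) and by 0.54 in wild-type cells (adjusted p = 0.00032). With the mean of all probe sets of the gene the fall in null cells was no longer called (-0.17, adjusted p = 0.083). The probe set used for Qars1 is of the x_at kind, which can bind more than 1 transcript. Another Qars1 probe set, not of that kind (mean 9.98), was called lower in each genotype. It had -0.313 in null and -0.325 in wild-type cells (limma adjusted p = 0.0085 and 0.0057). The other x_at probe set had -0.188 in null and -0.208 in wild-type cells. Neither change was called (limma adjusted p = 0.17 and 0.11). A dim Qars1 probe set (mean 3.89) had 0.203 in null and -0.188 in wild-type cells, called in neither. Sars1 had 9.97, 10.10 and 10.02 in stimulated and 10.00, 10.05 and 10.00 in unstimulated null cells, and 9.98, 10.20 and 10.22 in stimulated and 9.85, 9.93 and 10.03 in unstimulated wild-type cells. Its groups overlapped in both genotypes, with changes of 0.01 ± 0.0881 in null and 0.20 ± 0.0881 in wild-type cells (limma adjusted p = 0.95 and 0.12). The result in wild-type cells depended on stimulated replicate 1, without which the change was 0.28 and past limma's threshold (adjusted p = 0.037). It also depended on the probe set. The other Sars1 probe set (mean 9.547) was called higher in wild-type cells (0.273, limma adjusted p = 0.027) and not in null cells (0.080, adjusted p = 0.6).

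Counts of rises were alike for enzymes inside and outside the multisynthetase complex. Of the 7 cytosolic residents 6 rose and 1 (Qars1) fell in each genotype, with medians of 1.10 in null and 1.30 in wild-type cells, and of the 12 free enzymes 11 rose, with medians of 0.98 in null and 1.17 in wild-type cells. The 9 class I enzymes had medians of 0.98 in null and 1.38 in wild-type cells, and the 9 class II enzymes 0.98 in null and 1.13 in wild-type cells, with 8 rises in each class in each genotype. Eprs1, which holds both classes, is in neither of these counts.

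The scaffold genes included the largest changes of all 38. Eef1e1 had 11.71, 11.80 and 11.80 in stimulated and 9.49, 9.70 and 9.40 in unstimulated null cells, and 12.08, 11.90 and 12.04 in stimulated and 9.41, 9.29 and 9.40 in unstimulated wild-type cells. Every stimulated array lay above every unstimulated one, by far more than the arrays of a group differed. It rose 4.72-fold in null cells (2.24 ± 0.0924, limma adjusted p = 1.3e-08) and 6.24-fold in wild-type cells (2.64 ± 0.0924, adjusted p = 1.8e-09). Aimp2, which binds several of the enzymes, had 10.72, 10.50 and 10.72 in stimulated and 8.83, 9.02 and 8.70 in unstimulated null cells, and 11.07, 11.11 and 10.92 in stimulated and 8.71, 8.71 and 8.75 in unstimulated wild-type cells. This was a rise of 3.48-fold in null and 4.97-fold in wild-type cells without overlap (limma adjusted p = 9.6e-08 and 7.2e-09). Aimp1, the precursor of a secreted cytokine as well as a scaffold, differed little. It had 10.06, 10.07 and 10.10 in stimulated and 9.94, 9.96 and 9.94 in unstimulated null cells, and 10.12, 10.25 and 10.15 in stimulated and 9.91, 9.83 and 9.86 in unstimulated wild-type cells. No array overlapped between the groups, but with changes of 0.13 ± 0.0706 in null and 0.31 ± 0.0706 in wild-type cells Aimp1 was called in wild-type cells (limma adjusted p = 0.0042) and missed the threshold in null cells (adjusted p = 0.25). The difference between these changes was -0.18 ± 0.0998 and was not called (adjusted p = 0.75).

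**Figure D2:**
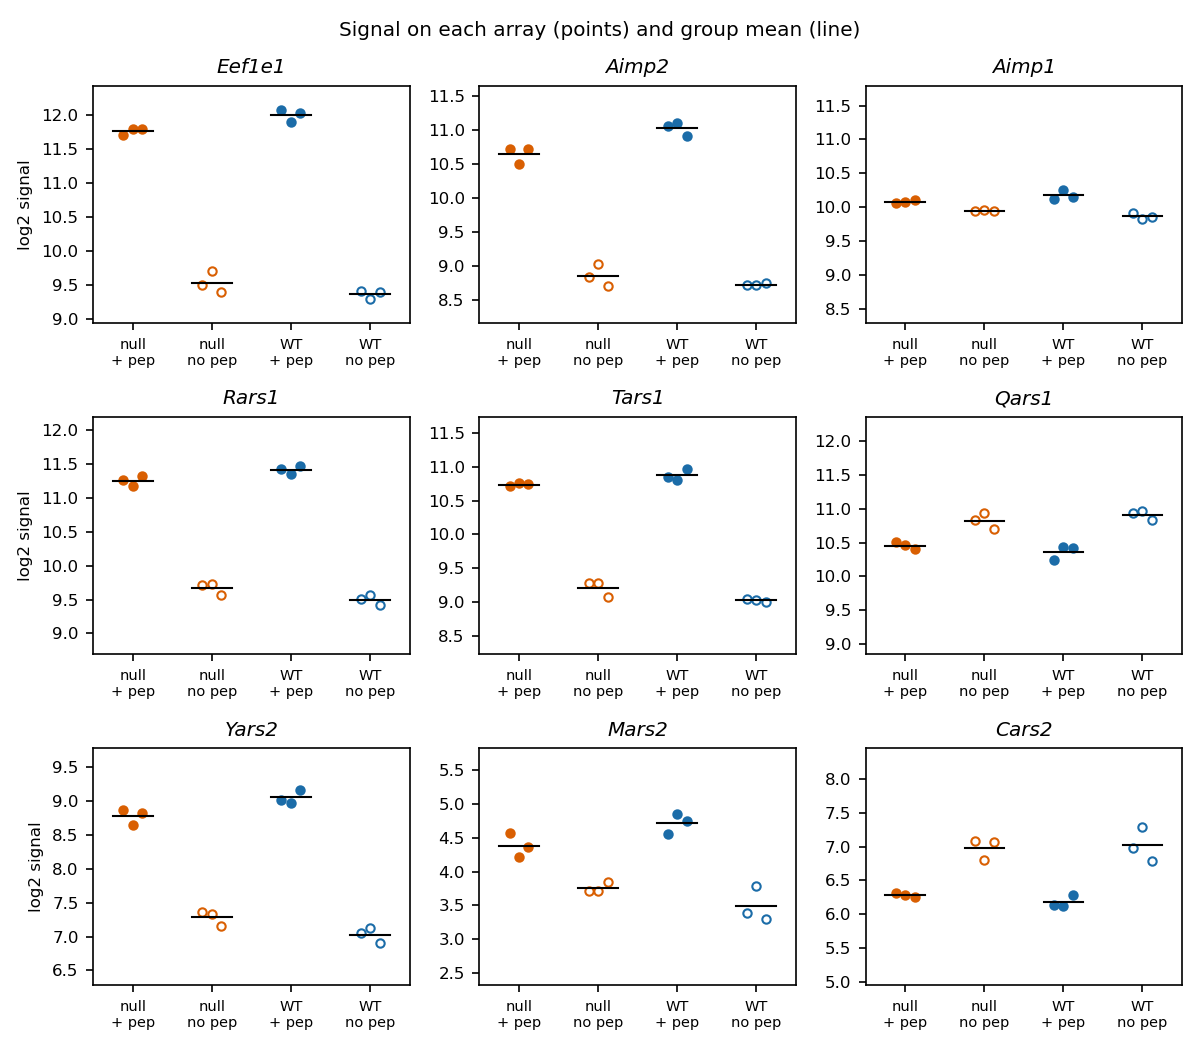
Log2 signal of each array (vertical axis, each panel spanning 3.5 log2 units from its own offset) for 9 genes in the 4 groups, with filled points for peptide, open points for no peptide and a line for each group mean. Eef1e1, Aimp2, Rars1, Tars1 and Yars2 show clear gaps between filled and open points in both genotypes, while Qars1 and Cars2 run the other way.

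Among the mitochondrial enzymes the tyrosyl enzyme Yars2 rose most. Yars2 had 8.87, 8.65 and 8.82 in stimulated and 7.37, 7.34 and 7.15 in unstimulated null cells, and 9.02, 8.98 and 9.17 in stimulated and 7.06, 7.13 and 6.90 in unstimulated wild-type cells. The groups did not overlap, and the change was 1.49 ± 0.0991 (2.81-fold) in null and 2.03 ± 0.0991 (4.07-fold) in wild-type cells (limma adjusted p = 3.6e-07 and 1.7e-08). Mars2, the methionyl enzyme, had 4.57, 4.21 and 4.36 in stimulated and 3.71, 3.72 and 3.85 in unstimulated null cells, and 4.55, 4.85 and 4.74 in stimulated and 3.39, 3.78 and 3.30 in unstimulated wild-type cells. It rose by 0.62 in null and 1.22 in wild-type cells, again with no overlap, but its mean of 4.09 lies below the median probe set (4.71), at the low end of the scale.

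Nars2 and Rars2 charge asparagine and arginine. Nars2 had 7.35, 6.99 and 7.42 in stimulated and 6.52, 6.62 and 6.62 in unstimulated null cells, and 7.10, 7.14 and 7.12 in stimulated and 6.09, 6.37 and 6.14 in unstimulated wild-type cells. Rars2 had 8.51, 8.43 and 8.69 in stimulated and 8.04, 8.15 and 7.97 in unstimulated null cells, and 8.38, 8.52 and 8.56 in stimulated and 7.56, 7.86 and 7.81 in unstimulated wild-type cells. Peptide arrays were above the others throughout. Nars2 rose by 0.67 in null and 0.92 in wild-type cells, and Rars2 by 0.49 in null and 0.74 in wild-type cells. Tars2, the threonyl enzyme, rose by 0.39 in null and 0.36 in wild-type cells. Sars2, the seryl enzyme, rose by 0.60 in null cells (limma adjusted p = 0.0036) and was not called in wild-type cells (0.33, adjusted p = 0.079), where with the mouse as a replicate block it was (adjusted p = 0.035). The difference between the Sars2 changes was 0.27 ± 0.183 (adjusted p = 0.81).

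Averaged over the genotypes, the falls on the mitochondrial side were led by the enzymes for cysteine and isoleucine. Cars2 had 6.32, 6.28 and 6.26 in stimulated and 7.08, 6.80 and 7.07 in unstimulated null cells, and 6.13, 6.12 and 6.29 in stimulated and 6.98, 7.29 and 6.78 in unstimulated wild-type cells. Iars2 had 7.71, 7.34 and 7.44 in stimulated and 8.19, 7.86 and 8.22 in unstimulated null cells, and 7.47, 7.44 and 7.59 in stimulated and 8.06, 8.16 and 7.91 in unstimulated wild-type cells. Neither gene had a stimulated array as high as the lowest unstimulated one of its genotype. Cars2 fell by 0.69 in null and 0.84 in wild-type cells, and Iars2 by 0.59 in null and 0.55 in wild-type cells. Another Cars2 probe set was called lower in null cells (-0.70, limma adjusted p = 0.00092) but not in wild-type cells (-0.32, adjusted p = 0.075). A dim Cars2 probe set (mean 3.77) was called in neither genotype, and the other Iars2 probe set was called lower in each. Hars2, the histidyl enzyme, fell by 0.44 in null and 0.56 in wild-type cells. The other Hars2 probe set had -0.22 in each genotype and was not called (limma adjusted p = 0.32 in null and 0.29 in wild-type cells). Fars2, the phenylalanyl enzyme, fell by 0.39 in null and 0.34 in wild-type cells, a call that was lost in wild-type cells without unstimulated replicate 2 or without any of the 3 stimulated replicates (adjusted p 0.06 to 0.13). In null cells it was lost without replicate 1 of either condition (adjusted p = 0.074 and 0.071). The other Fars2 probe set, with a mean of 4.73, was called in neither genotype.

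The 6 mitochondrial genes called in neither genotype were Aars2, Ears2, Lars2, Pars2, Vars2 and Wars2, and their stimulated and unstimulated arrays overlapped in both genotypes. Lars2, the leucyl enzyme, varied most among mice. In null cells it had 7.09, 6.28 and 7.78 with peptide and 7.01, 6.12 and 7.79 without, so that each mouse kept its own level, and in wild-type cells 7.62, 7.70 and 7.45 with and 7.45, 7.55 and 7.21 without. Its standard error of 0.383 was the highest of the 38.

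Setting each cytosolic enzyme against the mitochondrial one for the same amino acid gave 17 pairs over 16 amino acids. These are differences between changes, each measured by its own probe set. In 14 pairs the cytosolic gene changed more than its mitochondrial partner in 6 of 6 mice. Among the widest were the isoleucine pair, with a difference of 2.05 in null and 2.21 in wild-type cells, and the cysteine pair, with 1.68 in null and 2.22 in wild-type cells. The asparagine pair was narrow at 0.40 in null and 0.30 in wild-type cells. For methionine, serine and tyrosine the cytosolic gene changed more in 1 of 6 mice. There the differences in null and wild-type cells were -0.16 and -0.51 for methionine, -0.59 and -0.13 for serine and -0.04 and -0.30 for tyrosine.

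**Figure D3:**
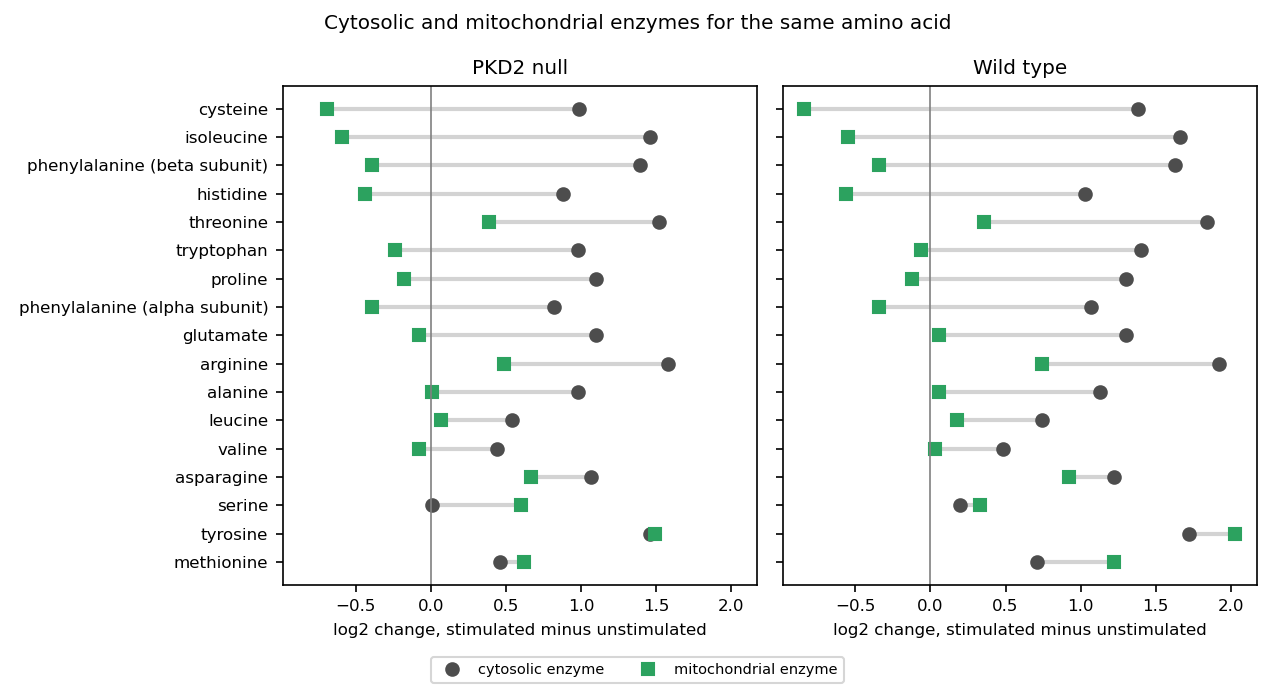
Change with peptide on the log2 scale for the cytosolic and mitochondrial enzyme of each amino acid, in PKD2-null cells (left) and wild-type cells (right). The cytosolic point lies right of the mitochondrial one in all pairs but methionine, serine and tyrosine.

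No synthetase or scaffold gene was called different between the genotypes. Without peptide 0 of 38 passed limma's adjusted threshold between null and wild-type cells, against 0.044% of all genes, and 8 of 38 had an unadjusted p under 0.05 (1928 of 18193 over all genes). With peptide 0 of 38 passed, against 1.64% of all genes in either direction (1.09% higher), and 10 had an unadjusted p under 0.05 (3202 of 18193). For the difference between the stimulation effects 0 passed, against 0.0055%, and 9 had an unadjusted p under 0.05 (1402 of 18193). The arrays of null and wild-type cells did not overlap in 9 of 38 genes when unstimulated, against 16.4% of all genes, and in 15 of 38 when stimulated, against 23.8%. The standard errors of the differences in level had a median of 0.102, and those of the difference of effects one of 0.144.

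Unstimulated null cells were higher than unstimulated wild-type cells in 31 of 38 genes, with a median difference of 0.12, against 9479 of 18193 and a median of 0.01 over all genes. With peptide 13 of 38 were higher and 25 lower in null cells, with a median of -0.10. Over all genes 10279 of 18193 were lower in stimulated null cells, with a median of -0.03. In the same comparison 15 of 19 cytosolic and 3 of 3 scaffold genes were lower in null cells, while of 16 mitochondrial genes 9 were higher and 7 lower. A negative difference of effects can be a smaller rise in null cells or a larger fall, as for Iars2 (-0.59 in null, -0.55 in wild-type cells). The difference was negative for 33 of 38 genes, with a median of -0.19, against 10051 of 18193 and a median of -0.02 over all genes. This compares with genes of like response: of 861 genes with an average rise of at least 1, 85.6% had a negative difference and the median was -0.29, and the 14 synthetase and scaffold genes of that size had 14 negative ones and a median of -0.33. The comparison between genotypes with peptide, that without it and the difference of effects share arrays.

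In the comparison without peptide the smallest p-values were those of Ears2, Nars2 and Wars1. Ears2, the mitochondrial glutamyl enzyme, had 6.42, 6.23 and 6.04 in unstimulated null and 5.88, 5.96 and 5.63 in unstimulated wild-type cells, a difference of 0.41 ± 0.119 with no overlap (limma adjusted p = 0.31). Its other probe sets, dimmer at means of 4.292, 4.265 and 4.217, had differences of 0.018, 0.122 and 0.074. Nars2 was higher by 0.39 ± 0.113 and Wars1, the tryptophanyl enzyme, by 0.31 ± 0.0958, at adjusted p = 0.31 and 0.34. With peptide the smallest belonged to Aimp2, Yars2 and Nars1. Aimp2 was lower in null cells by -0.39 ± 0.101 (adjusted p = 0.098), Yars2 by -0.27 ± 0.0991 (0.22) and Nars1, the asparaginyl enzyme, by -0.27 ± 0.101 (0.22). Nars1 had 11.31, 11.22 and 11.19 in stimulated null and 11.36, 11.53 and 11.66 in stimulated wild-type cells.

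For the difference of the effects Yars2, Aimp2 and Mars2 came first. It was -0.53 ± 0.14 for Yars2, -0.51 ± 0.143 for Aimp2 and -0.60 ± 0.19 for Mars2 (limma adjusted p = 0.46, 0.48 and 0.55). The other probe sets of Yars2 (mean 7.43) and Aimp2 (mean 9.182) had -0.211 and -0.417 (limma adjusted p = 0.87 and 0.58). The other Mars2 probe set had -0.005 at a mean of only 3.075. Markers of other cells also differed between the genotypes.

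All 9 B cell markers had higher values in null than in wild-type cells, with a median difference of 0.65 without peptide, where 0 passed limma's adjusted threshold, and of 0.72 with peptide, where 3 did. The mean of 5 plasma cell markers was 8.094 to 8.971 in stimulated null and 7.683 to 8.143 in stimulated wild-type cells, and 8.813 to 9.486 in unstimulated null and 8.208 to 8.517 in unstimulated wild-type cells. Of these, Sdc1 was called higher in stimulated null than in stimulated wild-type cells (by 1.26, limma adjusted p = 0.011). The erythroid gene Alas2 had differences of -2.43 with and -2.82 without peptide, neither past the threshold (limma adjusted p = 0.14 and 0.25). It is 1 of 3 erythroid markers, whose median differences were only -0.23 with and -0.20 without peptide. All 3 were lower in null cells and 0 were called. Of 6 T cell markers, 5 were higher in stimulated null than in stimulated wild-type cells (median 0.30), and 1 was higher without peptide (median -0.12). Of 9 myeloid and dendritic cell markers, 6 were higher in null cells with peptide (median 0.05) and 8 without it (median 0.27). In these lists 0 passed limma's adjusted threshold between genotypes. The part of all these markers in the genotype values of the synthetases was not tested.

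**Figure D4:**
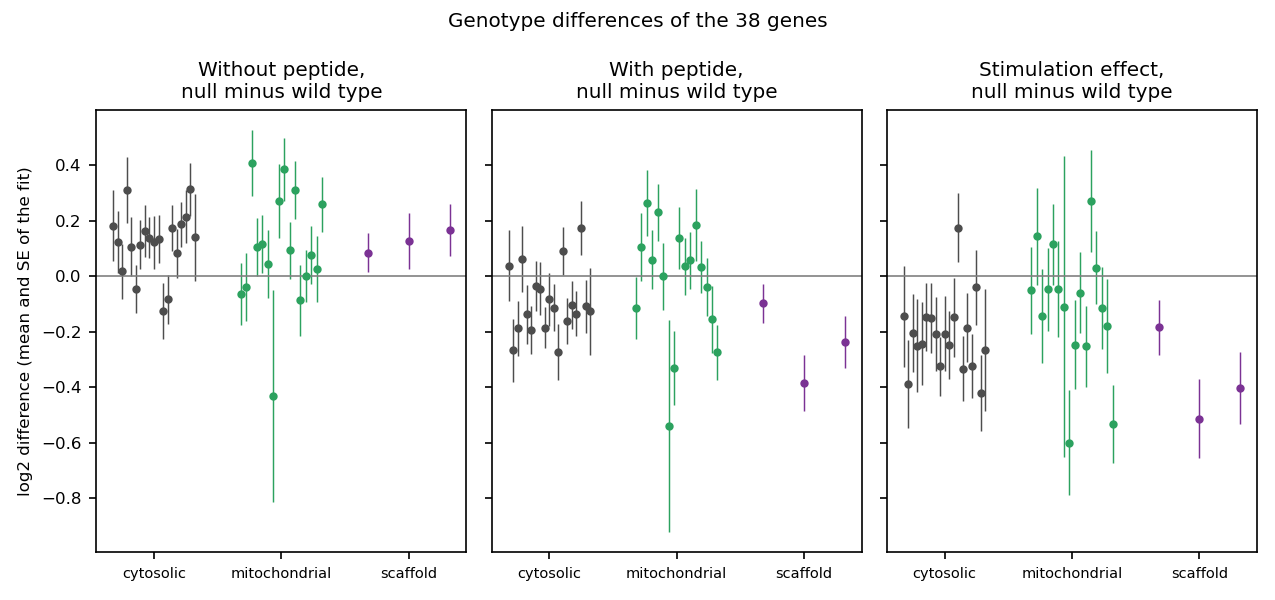
Null minus wild-type differences on the log2 scale (vertical axis) with their standard errors, by class, for cells without peptide, cells with peptide and the stimulation effect. None of the 38 genes passed limma's adjusted threshold in any of them, and the difference in stimulation effect lies below 0 for 33.

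Genes that work beside the synthetases were counted from lists. Over all genes, 12.5% were called higher and 19% lower with peptide in null cells. In wild-type cells these shares were 15.1% and 20.4%. Of 13 measured genes of other charging steps, 3 rose and 1 fell in null cells and 4 rose and 1 fell in wild-type cells. Sephs2, which makes selenophosphate for selenocysteine, rose by 0.99 in null and 1.38 in wild-type cells, and Gatc, a subunit of the mitochondrial amidotransferase, by 0.36 in null and 0.45 in wild-type cells. Mtfmt, which formylates the mitochondrial initiator tRNA, rose by 0.46 in wild-type cells and had 0.36 in null cells (limma adjusted p = 0.072). With the mouse as a replicate block it was called higher in null cells too (limma adjusted p = 0.043). Pstk, the kinase that prepares seryl-tRNA for selenocysteine, fell by 1.18 in null and 1.35 in wild-type cells. Of 54 measured genes of tRNA processing, modification and export, 37 rose and 6 fell in null cells and 41 rose and 5 fell in wild-type cells, with medians of 0.72 in null and 0.81 in wild-type cells. Trmt61a, the catalytic subunit of a tRNA methyltransferase, changed by 2.94 in null and 3.52 in wild-type cells, and Mettl1, the catalytic subunit of another, by 2.54 in null and 2.72 in wild-type cells. Tsen34, a subunit of the tRNA splicing endonuclease, fell by 0.94 in null and 1.24 in wild-type cells, and Dus2, which makes dihydrouridine, by 0.73 in null and 1.00 in wild-type cells.

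Of 21 measured RNA polymerase III genes, which transcribe tRNA, 10 rose and 3 fell in null cells and 10 rose and 5 fell in wild-type cells. Their share of falls was 14.3% in null and 23.8% in wild-type cells, near the 19% and 20.4% of all genes. Rises made up 47.6% in each genotype, against 12.5% of all genes in null and 15.1% in wild-type cells. The subunits Polr3d and Polr3e rose by 1.78 and 1.32 in null and by 1.91 and 1.88 in wild-type cells, while Maf1, a repressor of the polymerase, fell by 1.41 in null and 1.48 in wild-type cells, and the subunit Polr3gl by 1.11 in null and 0.92 in wild-type cells. Of 9 genes of the response to uncharged tRNA, 3 rose and 0 fell in null cells, and 3 rose and 3 fell in wild-type cells. Atf4 rose by 0.61 in null and 0.62 in wild-type cells, and its known target Chac1 by 0.76 in null and 0.69 in wild-type cells. Ddit3 and Trib3, other targets, were lower by 0.84 and 0.98 with peptide in wild-type cells, past the test, and had -0.28 and -0.70 in null cells (limma adjusted p = 0.064 and 0.055). Ddit3 was also higher in stimulated null than in stimulated wild-type cells, by 0.53 (limma adjusted p = 0.032), which makes it the 1 gene of this list called between genotypes. Myc rose by 3.60 in null and 4.02 in wild-type cells, and Mycn rose by 0.50 in null cells and had 0.21 in wild-type cells (limma adjusted p = 0.23). Of 9 genes of the interferon gamma response, which in human cells induces Wars1, 6 rose and 1 fell in null cells and 7 rose in wild-type cells. Ifng, the cytokine itself, rose by 3.31 in null and 5.45 in wild-type cells, and the chemokine Cxcl10 by 3.86 in null and 4.99 in wild-type cells. The gene that fell was Ciita, the activator of MHC class II genes, with -0.80 in null cells and -0.58 in wild-type cells (limma adjusted p = 0.026 and 0.097). Wars1 itself had 8.92, 9.21 and 8.87 in stimulated and 7.94, 8.12 and 8.02 in unstimulated null cells, and 9.13, 9.11 and 9.09 in stimulated and 7.72, 7.76 and 7.66 in unstimulated wild-type cells.

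**Figure D5:**
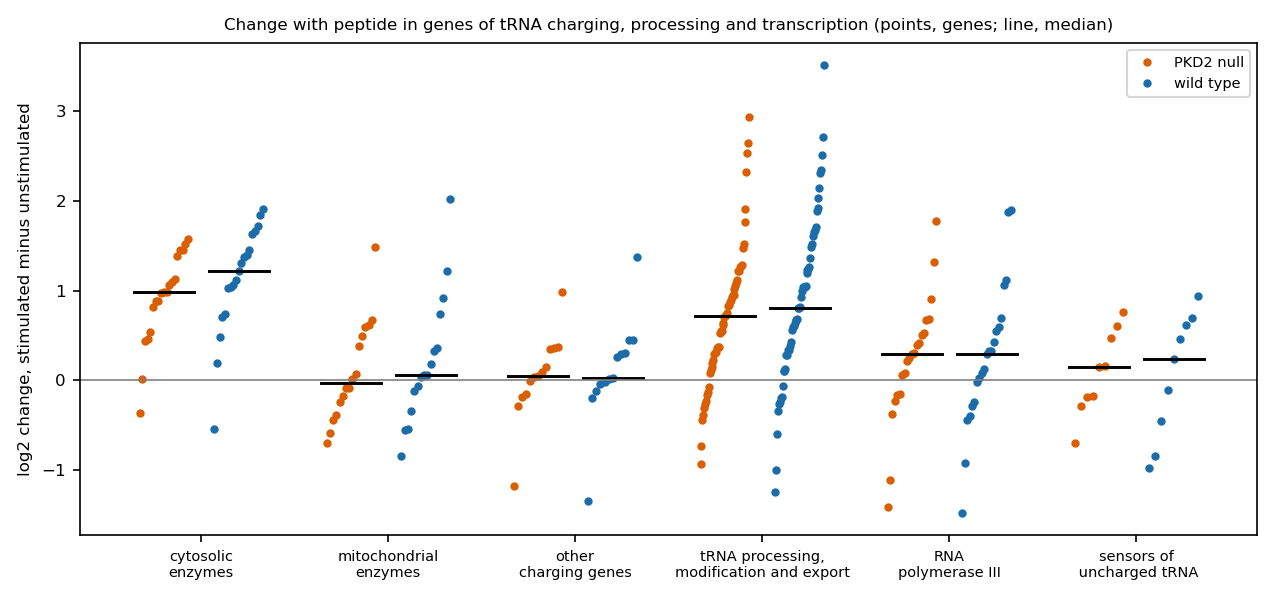
Change with peptide on the log2 scale for the genes of each list, in PKD2-null and wild-type cells, with the list medians. The cytosolic enzymes have medians of 0.98 in null and 1.22 in wild-type cells, and the genes of tRNA processing 0.72 in null and 0.81 in wild-type cells, while the medians of the mitochondrial enzymes are -0.03 in null and 0.06 in wild-type cells.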

How the data were processed

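Affymetrix arrays measured RNA of 12 lymph node cultures. The deposited table holds log2 signals that the authors made with Affymetrix Expression Console 1.1, per the submitters' processing notes; the sources used here do not say how they were normalized, and they were kept as deposited. Of 45101 probe sets, 64 controls were left out. Names came from the platform annotation, 34945 probe sets had 1 symbol and 932 several (not used as genes), and a gene's values are those of whichever of its probe sets had the highest mean over the 12 arrays. Of the 38 genes, 16 are written in the files without the final 1 and 5 use probe sets of the x_at or s_at kind.

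A group-means model over the 12 arrays was fitted in R 4.3.3 with limma 3.58.1 (8 residual and 4.18 prior degrees of freedom), and 5 comparisons were tested two-sided with Benjamini-Hochberg adjustment over 45037 probe sets. Calls are at adjusted p under 0.05. Per-array values are given for the 4 largest and 2 lowest average changes of each enzyme class, the scaffold genes and the 3 smallest p of each genotype comparison; in the other lists the 2 largest average changes each way that were called in a genotype are named. Lars2, Gatc and the markers named singly were picked after their values were seen. The genes and lists were chosen with earlier results of these data known.

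Labels number the animals, which pairs the arrays of a mouse. After subtraction of group means, the arrays correlated at 0.116 to 0.577 between the arrays of a mouse and at most 0.129 between those of other mice. Alternatives were the mouse as a replicate block, quantile normalization, median centring, a filter on dim probe sets, the mean of all probe sets, array weights, a variance trend, fits of 6 arrays, a change of at least 0.5 and leaving out each array.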

Additional observations from a re-analysis of the deposited data

How the results depend on the processing

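Of 397 counts and class values recomputed under 21 settings, 393 held, which means within 1.5 times for a count and within 1 SD between mice for the difference of class medians, and 0 of these or of the 3947 values of single genes reversed. The cytosolic median exceeded the mitochondrial one by 1.13 averaged over genotypes, by 0.972 after quantile normalization and by 1.055 to 1.217 when 1 array was left out; the cause of the drop was not tested. In null cells the count of cytosolic genes called lower went to 0 with the mean of all probe sets, where Qars1 missed the threshold, and to 0 when a change of at least 0.5 was required, which by construction also left 2 of 4 mitochondrial falls in null cells. With 1 array left out, cytosolic rises in wild-type cells numbered 17 to 18, mitochondrial rises 5 to 6 and mitochondrial falls 3 to 4, and mitochondrial falls in null cells 3 to 4. With the mouse as a replicate block the 1 changed call was Sars2 in wild-type cells (0.33, adjusted p = 0.035), which also passed after quantile normalization (adjusted p = 0.016). Fars2 in wild-type cells missed the threshold after quantile normalization (adjusted p = 0.11), and Sars1 in wild-type cells passed with the mean of all probe sets (0.24, adjusted p = 0.019). The filter on dim probe sets removed Mars2, and the fit of 6 arrays gives no difference of effects. All genotype counts stayed at 0 in limma under these settings.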
